A study of Mus musculus with 66 samples.

Results

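RNA was sequenced from the ventral striatum of wild-type (WT) mice at 6 zeitgeber times (ZT, hours after lights on), and the 9 libraries taken in the dark hours were compared with the 9 taken in the light hours. The dark libraries were ZT15, ZT19 and ZT23 after an injection of saline at ZT3, with 3 mice at each time. The light libraries were the ZT3 baseline and ZT7 and ZT11 after the same injection, again with 3 at each time. The comparison covered every gene that reached 1 FPKM in any of these 18 libraries. FPKM is the number of fragments mapped to a gene, scaled to its transcript length and to the library's mapped total. This left 13940 of the 24138 genes in the table, and 19532 genes were above 0 in at least 1 of the 18.

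All 18 mice were adult males labelled C57BL/6 (C57BL/6J background in the study's methods) and wild type, kept on equal hours of light and dark. Their breeding, and whether they carried any of the alleles of the knockout line, is not given in the sources used here. The whole series holds 66 libraries, the others coming from WT mice given 20 mg/kg cocaine at ZT3 and from iMSN-D2RKO mice given saline or cocaine. The ZT3 libraries are labelled as shared between the saline and cocaine series, and whether these mice were injected or handled before sacrifice is not given, so results that rest on ZT3 carry that doubt. Hour of sacrifice, hours since the injection and hours since handling rise together in this design, so for ZT7 to ZT23 they cannot be told apart. Each library is a bulk tissue punch, in which fewer cells of a type and less RNA per cell cannot be told apart.

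Light is the rest phase of mice and dark is their active phase. In nearly every cell the clock runs as a loop in which the proteins of Arntl (BMAL1), Clock and Npas2 switch on the Per and Cry genes and the REV-ERB genes Nr1d1 and Nr1d2. PER and CRY proteins then block that activation, while the REV-ERB proteins repress Arntl. In the striatum this loop runs in medium spiny neurons, whose activity and dopamine input also follow the hours of waking. Body temperature, feeding and corticosterone follow the same cycle, and RNA of heat-shock, cold-inducible, metal-binding and cholesterol synthesis genes is known to respond to them in many tissues.

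Of the 18 libraries, 3 stood apart from the rest, and all were dark ones: ZT19 replicates 1 and 2 and ZT23 replicate 1. They scored 44.3 to 51.5 on the first axis of variation among mice of the same group, against -13.8 to -7.7 in the other 6 dark libraries and -23.1 to -8.2 in the 9 light ones. That axis held 43.6% of the variation over 9584 genes, and 13 of the 66 libraries of the series lay at its far end. They came from both genotypes and both treatments, and the only light library among them was iMSN-D2RKO cocaine ZT7 replicate 2. Whether leaving such libraries out also removes a difference tied to the dark hours was not tested. The total FPKM of the dark libraries was 381113 to 410608 and that of the light libraries 371897 to 402387. Read depth is unknown, since the deposited values hold no counts. Most dark-light differences below are therefore given for all 18 libraries and again for the 15 without these 3. Where a single value is given and no fit is named, it comes from all libraries of the comparison. In the 15, ZT19 rests on a single library.

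The tissue label was checked against marker genes. All 10 spiny neuron markers were above 1 FPKM, and their summed level was 3390 to 5040 FPKM in the dark and 2630 to 4380 in the light. Summed levels of the other cell types overlapped between the phases. Oligodendrocyte markers (10 of 10 detected) ran from 2390 to 4040 FPKM in the dark and 2820 to 6060 in the light. Of these 10 markers, 4 were lower in the dark with all 18 libraries (40%, against 6.79% of all genes tested) and 0 without the 3. Their median difference did not shrink, going from -0.18 to -0.225 on the log2 scale, with 1 of the 10 differences positive without the 3. Astrocyte markers (9 of 9) reached 724 to 824 FPKM in the 3 libraries, above the 491 to 662 of the light hours and the 532 to 623 of the other dark ones. Septum, pallidum and thalamus markers were 66.8 to 183 FPKM in the 3, 48.3 to 64.8 in the other dark libraries and 51.1 to 162 in the light. Microglia markers were 282 to 321 FPKM in the 3, 313 to 420 in the other dark libraries and 312 to 458 in the light. Excitatory neuron markers (10 of 10) ran from 816 to 1840 FPKM in the dark and 866 to 1200 in the light. The 1840 was in a dark library that was not set apart. With all 18 libraries 0 of these markers were called, and without the 3, 2 were higher, beside 4.18% of all genes. Their median difference was 0.11, and 0.20 without the 3, against 0.055 and 0.031 over all genes. In iMSN-D2RKO mice it was -0.75 without the set-apart libraries. Choroid plexus and ependymal markers were 11.3 to 39.0 FPKM in the dark and 11.6 to 128 in the light, with the defining channel gene Kcnj13 under 1. The part of cell composition in the gene differences below was not tested.

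Across all genes, 3324 differed between the dark and light hours, 2378 higher in the dark (17.1% of those tested) and 946 lower (6.79%), by limma on log2(FPKM + 1) with a Benjamini-Hochberg adjusted p under 0.05. Scaling each library to a single total or to a single distribution of values changed the split from 71.5% of calls higher to 56.7% and 55.4%. Without the 3 libraries 570 of 13636 genes were higher (4.18%) and 215 lower (1.58%). Both calls were met by 449 genes higher (3.22%) and 154 lower (1.1%). These genes are referred to below as called in both fits. The calls also depended on the hours compared: 27 genes were called without the ZT3 libraries, 12 without the ZT19 ones and 2 with the 6 time-point means as units. For genes called with all libraries, the median difference went from 0.36 to 0.18 on the log2 scale without the 3 for the 2378 higher in the dark and from -0.35 to -0.20 for the 946 lower. The SE and p-values of these fits measure the spread between mice of the same hour, not that between the hours of a phase. Both fits share 15 libraries and are not independent. Of the 2378 genes, 96.4% were higher in the 3 libraries than in the other dark ones, compared with 5.71% of the 946. The share was 52.3% for the 10616 genes not called. These 3 libraries were part of the fit that made the calls, so the shares of called genes follow in part from that choice.

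**Figure D1:**
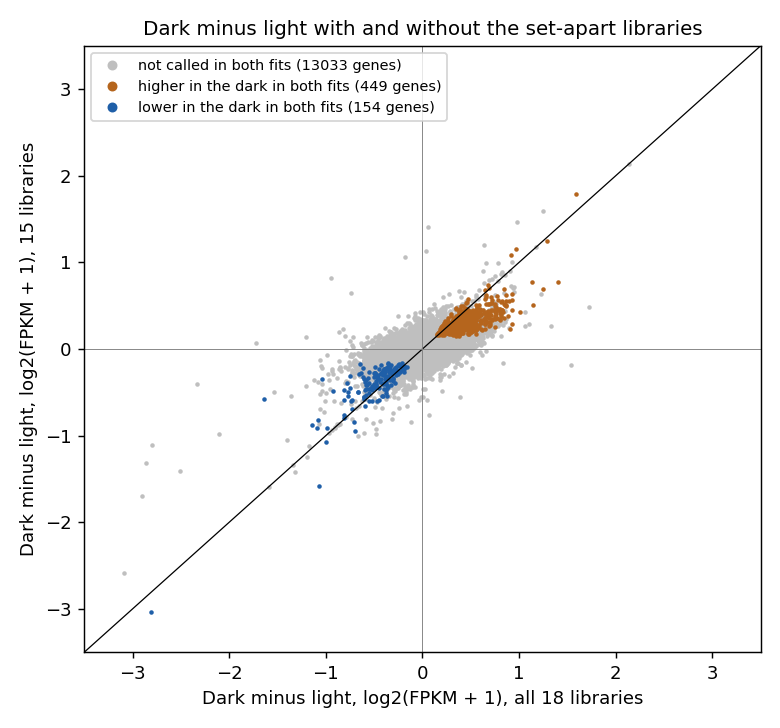
Difference between dark and light hours of each gene tested in both fits, in log2(FPKM + 1), with all 18 libraries (x axis) and with the 15 left after the 3 set-apart dark libraries (y axis). The line marks equal values, brown points are the 449 genes higher in the dark in both fits and blue points the 154 lower, and most brown and blue points lie nearer to 0 on the y axis than on the x axis.

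Among the clock genes, Arntl was higher in the dark and Nr1d1 lower in both fits, Per2 was higher and Per1 lower with all libraries only, and Cry1 was higher in the 15-library fit only. The promoters of Arntl, Cry1 and Per1 are shown because they hold elements through which the loop is known to act. Windows of 250 bases before to 50 after an annotated start were taken from RefSeq (GRCm38.p6) and searched on both strands. For Arntl, whose gene has 2 annotated starts, the second window, chr7:113207261-113207560 on the plus strand, holds a REV-ERB response element (ANTAGGTCA, in capitals) beginning 29 bases after the start. Of 32851 windows, 0.661% hold this element.
Arntl: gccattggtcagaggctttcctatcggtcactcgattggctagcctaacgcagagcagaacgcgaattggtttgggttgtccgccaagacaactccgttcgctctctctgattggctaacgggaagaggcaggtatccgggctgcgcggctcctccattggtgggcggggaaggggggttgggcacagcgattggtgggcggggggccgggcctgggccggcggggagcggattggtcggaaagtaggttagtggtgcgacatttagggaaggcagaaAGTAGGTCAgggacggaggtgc
The Cry1 window, chr10:85185005-85185304 on the minus strand, holds the E-box CACGTG bound by CLOCK and BMAL1, in capitals, 60 bases before the start.
Cry1: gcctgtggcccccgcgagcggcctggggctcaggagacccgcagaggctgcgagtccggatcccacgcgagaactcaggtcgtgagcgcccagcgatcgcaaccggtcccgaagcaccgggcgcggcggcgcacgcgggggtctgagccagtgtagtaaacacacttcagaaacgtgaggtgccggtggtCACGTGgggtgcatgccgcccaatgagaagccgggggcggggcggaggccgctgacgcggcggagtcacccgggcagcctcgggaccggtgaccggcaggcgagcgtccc
The first of the 2 Per1 windows, chr11:69098699-69098998 on the plus strand, holds an E-box 166 bases before the start.
Per1: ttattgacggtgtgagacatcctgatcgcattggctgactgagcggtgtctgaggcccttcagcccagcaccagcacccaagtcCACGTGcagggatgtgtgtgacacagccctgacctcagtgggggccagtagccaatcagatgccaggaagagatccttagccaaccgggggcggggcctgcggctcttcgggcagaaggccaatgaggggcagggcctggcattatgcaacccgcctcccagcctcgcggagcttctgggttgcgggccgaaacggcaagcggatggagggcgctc
E-boxes of this form are in 7.15% of all windows. The Nr1d1 window holds 0, and that of Ciart, a repressor that was not called, holds 3. No window was at hand for Per2. A match is a description of the letters and not of binding.

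Arntl was 11.8, 10.4 and 13.0 FPKM at ZT3 in replicates 1 to 3, 9.01, 8.54 and 10.2 at ZT7, and 8.75, 8.24 and 7.88 at ZT11. It was 11.6, 11.1 and 10.2 at ZT15, 17.1, 14.9 and 12.9 at ZT19, and 19.1, 12.2 and 10.5 at ZT23. The 5 lowest values were those of ZT11 and of ZT7 replicates 1 and 2, while ZT7 replicate 3 and ZT15 replicate 3 were both at 10.2. The highest were those of the 3 set-apart libraries, and the ZT3 libraries overlapped the dark ones. The difference was 0.40 ± 0.09 (SE) on the log2 scale (adjusted p = 0.0172, n = 9 and 9, limma) and 0.26 without the 3 (adjusted p = 0.0445). Its partners Clock (0.34, adjusted p = 0.112) and Npas2 (0.22, adjusted p = 0.143) were not called, and without the 3 libraries their differences were -0.0031 and -0.011.

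Per2, a repressor of the loop, was 26.9, 24.3 and 20.4 FPKM at ZT15, above every other library, with 15.2 to 15.7 at ZT19 and 8.12 to 9.81 at ZT23. In the light it ran from 7.86 to 17.0 FPKM, the highest being ZT3 replicate 1. Dark and light therefore overlapped, and the difference of 0.39 ± 0.09 (adjusted p = 0.0172) became 0.38 with an adjusted p of 0.0594 without the 3 libraries. ZT15 alone was 1.02 above the light mean (adjusted p = 0.0056), and Per2 also differed among the 3 dark hours (adjusted p = 0.0111, and 0.0255 without the 3).

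Per1 was highest in ZT3 replicate 1, at 68.8 FPKM, and was 42.2 and 48.7 in the other ZT3 libraries. It was 41.9 to 47.2 at ZT15 and only 18.5 to 26.2 at ZT19 and ZT23, against 24.7 to 39.1 at ZT7 and ZT11. The dark hours thus held both some of the highest values and the 4 lowest. The phase difference of -0.42 ± 0.10 (adjusted p = 0.0152) was -0.31 without the 3 libraries (adjusted p = 0.0731). Cry1, the third repressor, was 19 to 22.4 FPKM at ZT15 and 11.8 to 19.7 at ZT19 and ZT23, against 10.9 to 16.4 in the light, a difference of 0.23 ± 0.08 (adjusted p = 0.0573) and of 0.35 without the 3 (adjusted p = 0.0411). Per3, Cry2 and Ciart were not called in either fit, their differences with all libraries lying between -0.11 and 0.06.

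Nr1d1 was 65.5 to 93.6 FPKM in the light, with a median of 72.3, and 42.0 to 71.4 in the dark, with a median of 60.8. Its lowest values were ZT19 replicate 3 (42.0) and all of ZT23 (43.5, 42.8 and 53.7), and its highest was at ZT11 (72.3, 93.6 and 82.5). The difference was -0.41 ± 0.10 (adjusted p = 0.0157), and -0.54 without the 3 libraries (adjusted p = 0.00858). Its paralog Nr1d2 had values of 44.0 to 56.1 FPKM in the 3 set-apart libraries and of 21.2 to 35.3 in the other 15, and was not called (0.37, adjusted p = 0.0624, and 0.06 without the 3). The ROR receptors, which activate Arntl from the same element, were not called either. Of the 6 output factors only Hlf was called, with 44.2 to 84.1 FPKM in the dark and 32.4 to 51.5 in the light (0.37 ± 0.11, adjusted p = 0.0291, and 0.17, adjusted p = 0.194, without the 3). Dbp was 79.2 to 217 FPKM in the light and 46.5 to 161 in the dark, with its highest value at ZT11 (-0.34, adjusted p = 0.17). The clock modifiers Csnk1d, Csnk1e, Fbxl21, Btrc, Nono and Usp2 were not called in either fit.

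Cirbp, a cold-inducible RNA-binding protein whose RNA falls as body temperature rises, was lower in the dark in both fits. It was 77.7 to 92.9 FPKM at ZT11 and 72.5 to 80.5 at ZT7, but only 40.3 to 52.5 at ZT3. In the dark it was 60.2 to 67.9 FPKM at ZT15, 30.2, 31.8 and 45.4 at ZT19, and 30.5, 60.3 and 64.5 at ZT23. The 3 lowest values were those of the set-apart libraries, and ZT3 overlapped the dark. The difference was -0.50 ± 0.13 (adjusted p = 0.0202), and -0.27 without the 3 (adjusted p = 0.0455). Rbm3, its close relative, was 2.01 to 5.53 FPKM in the dark and 2.68 to 5.41 in the light and was not called (adjusted p = 0.0925).

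**Figure D2:**
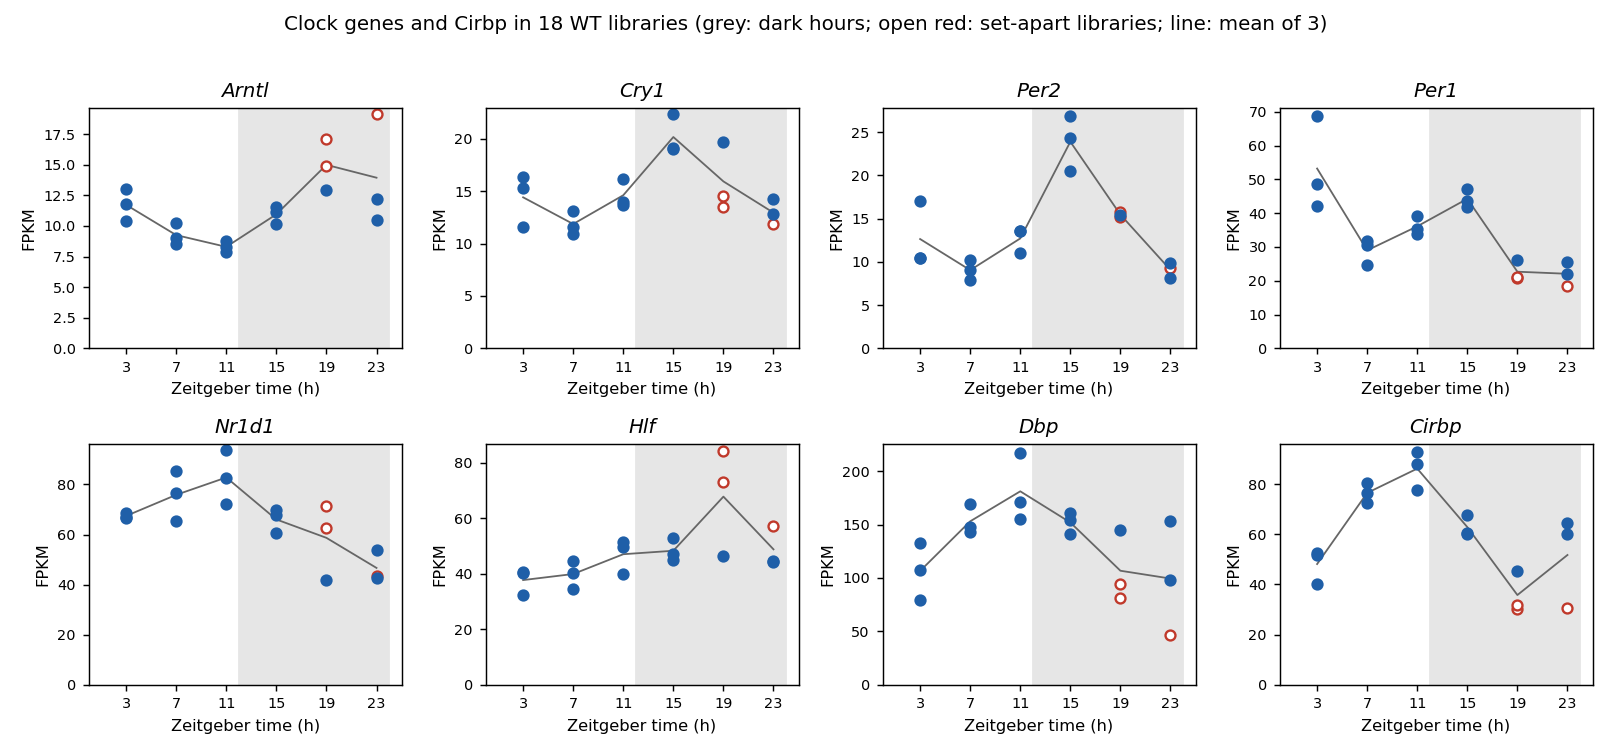
FPKM of 7 clock genes and Cirbp in the 18 WT libraries by zeitgeber time, with the dark hours in grey, the mean of 3 libraries as a line and the 3 set-apart libraries as open red circles. Per2 and Cry1 peak at ZT15, Nr1d1 and Cirbp are highest at ZT11, and the open circles are the highest Arntl and Hlf values and the lowest Cirbp values.

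Of 34 cytosolic heat-shock and folding genes tested, 18 were higher in the dark (52.9%, against 17.1% of all genes) and 0 lower with all libraries, and their median difference was 0.21 against 0.055 over all genes. Without the 3 libraries 2 were higher and 1 lower, beside 4.18% and 1.58% of all genes, with a median of 0.14 against 0.031. Chordc1, a co-chaperone of HSP90, was 26.3 to 29.5 FPKM at ZT15, 42.6, 42.8 and 29.7 at ZT19 and 45.4, 22.7 and 22.4 at ZT23. In the light it was 25 to 25.6 at ZT3 and 17.5 to 22.6 at ZT7 and ZT11. Every ZT15 and ZT19 library exceeded every light library, while ZT23 replicates 2 and 3 fell among them. The difference was 0.55 ± 0.12 (adjusted p = 0.0145) and 0.33 without the 3 (adjusted p = 0.0343). Dnajb4, an HSP40 co-chaperone, was also called in both fits (0.46, adjusted p = 0.0157, and 0.25, adjusted p = 0.0439).

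The window at the Chordc1 start, chr9:18292017-18292316 on the plus strand, is shown because it holds 3 overlapping matches to the heat-shock element (GAANNTTCNNGAA or TTCNNGAANNTTC, in capitals), the first beginning 4 bases before the start. Such an element is in 0.603% of all windows, and both Hsph1 windows hold 1.
Chordc1: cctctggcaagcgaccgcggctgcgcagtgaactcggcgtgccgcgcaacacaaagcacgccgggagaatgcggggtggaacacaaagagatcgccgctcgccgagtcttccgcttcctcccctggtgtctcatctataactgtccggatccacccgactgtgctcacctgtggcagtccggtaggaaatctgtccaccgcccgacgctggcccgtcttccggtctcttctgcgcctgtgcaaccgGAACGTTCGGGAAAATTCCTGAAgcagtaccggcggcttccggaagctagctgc
Hsph1, an HSP110 chaperone, was called with all libraries only (0.34). Hsp90ab1, a main cytosolic HSP90, was 569 to 1356 FPKM in the dark and 483 to 717 in the light. ZT15 (569 to 688) lay within the light range, and the other 6 dark libraries (800 to 1356) above it. Its difference of 0.56 ± 0.12 (adjusted p = 0.0145) was 0.36 without the 3 libraries (adjusted p = 0.0572). Hspa8, the constitutive HSP70, had a lower level in the dark in both fits and was called only without the 3 libraries: -0.48 (adjusted p = 0.131) with all, and -0.99 (adjusted p = 0.0062) with 15.

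In the endoplasmic reticulum (ER), 8 of 23 chaperone and unfolded-protein-response genes were higher in the dark with all libraries (34.8%, against 17.1% of all genes). Lower with all libraries was 1, Chac1 (4.35%, against 6.79%). Without the 3, 2 were higher and 0 lower, beside 4.18% and 1.58% of all genes. The median difference was 0.16 against 0.055 over all genes, and 0.15 against 0.031 without the 3. Hsp90b1 (GRP94) was 115 to 138 FPKM at ZT15, 264, 254 and 171 at ZT19 and 306, 168 and 164 at ZT23, against 89.4 to 159 in the light. As for Hsp90ab1, ZT15 lay within the light range and the later hours above it. The difference of 0.60 ± 0.14 (adjusted p = 0.0168) was 0.37 without the 3 (adjusted p = 0.0685). Pdia3, a disulfide isomerase, was 62.5 to 71.6 FPKM at ZT15 and 75.7 to 90.9 at ZT19 and ZT23, against 48.0 to 80.5 in the light (0.31 ± 0.07, adjusted p = 0.017, and 0.29, adjusted p = 0.0559, without the 3). Manf, a secreted ER stress protein, was called in both fits with a small difference (0.17, adjusted p = 0.043, and 0.19, adjusted p = 0.0445).

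The Hsp90b1 window, chr10:86705395-86705694 on the minus strand, holds 2 ER stress elements (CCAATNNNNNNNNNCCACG, in capitals), which 0.119% of all windows hold, and the Calr window holds 1.
Hsp90b1: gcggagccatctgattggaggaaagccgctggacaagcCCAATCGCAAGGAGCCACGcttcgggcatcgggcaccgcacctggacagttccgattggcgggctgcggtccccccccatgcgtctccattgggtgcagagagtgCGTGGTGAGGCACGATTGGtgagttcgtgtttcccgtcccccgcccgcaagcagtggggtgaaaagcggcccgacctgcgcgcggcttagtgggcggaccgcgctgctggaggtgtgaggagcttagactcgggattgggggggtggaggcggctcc
Calr, a lectin chaperone, was 148 to 300 FPKM in the dark and 120 to 214 in the light, called with all libraries (0.41, adjusted p = 0.0223) and not without the 3 (0.24, adjusted p = 0.09). The Pdia3 window holds no such letters.

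Splicing factors were the list with the highest share of genes higher in the dark. Of 34 SR, hnRNP and CLK genes, 20 were higher (58.8%, against 17.1% of all genes) and 1 (Hnrnpa0) lower with all libraries. Their median difference was 0.31. Without the 3 libraries 10 were higher, beside 4.18% of all genes, and 0 lower. The median was then 0.11 against 0.031 over all genes, and 30 of the 34 differences were positive. Clk1, a kinase that phosphorylates SR proteins, was 36 to 46.3 FPKM in the light. At ZT15 it was 61.8, 56.8 and 52.7, at ZT19 87.7, 85.2 and 57.7, and at ZT23 75.1, 43.8 and 51.0. Only ZT23 replicate 2 lay within the light range, and the difference was 0.61 ± 0.10 (adjusted p = 0.011), with 0.41 (adjusted p = 0.0068) without the 3. The related kinase Clk3 (0.31 and 0.24), the splicing activator Tra2a (0.32 and 0.34), Srsf4 (0.39 and 0.29) and Hnrnpm (0.60 and 0.45) were called in both fits.

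Immediate early genes, which neurons switch on within minutes of stimulation, had their highest mean at ZT3 in 17 of 20 genes, the others being Ier5, Nr4a2 and Jun. Without the 3 libraries it was 18 of 20, against 12.1% of all genes. Of the 20, 5 were lower in the dark (25%, against 6.79% of all genes) and 0 higher (against 17.1%) with all libraries. Without the 3, 0 were called, and the median was -0.27 in both fits. Fos was 46.0, 13.4 and 18.1 FPKM at ZT3, 2.41 to 6.09 at ZT7 and ZT11, and 1.95 to 5.57 in the dark. The ZT7 and ZT11 libraries thus shared their range with the dark ones, and each ZT3 library was above every other. The difference was -0.86 ± 0.20 (adjusted p = 0.0157), and -0.86 without the 3 (adjusted p = 0.0501). Fos also differed among the light hours (adjusted p = 0.00479). Egr4 showed the same order, with 186, 66.3 and 88.6 FPKM at ZT3 and 18.2 to 33.0 at ZT7 and ZT11, against 8.65 to 37.3 in the dark (-1.0 ± 0.23, adjusted p = 0.0154). Without the ZT3 libraries Arc, Fosl2 and the phosphatase gene Dusp4 had differences of 0.097, 0.14 and 0.0037, of opposite sign to those with them (-0.56, -0.60 and -0.26). Of 15 genes induced later by activity, 1 (Inhba, 0.45) was higher and 2 (Sik1, -0.52, and Dusp4) lower with all libraries. These are 6.67% and 13.3%, against 17.1% and 6.79% of all genes, and 0 were called without the 3.

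Metallothioneins, which bind zinc and copper and respond to metal and glucocorticoid, were lower in the dark with all libraries. Mt2 was 447, 592 and 438 FPKM at ZT3, 405, 756 and 377 at ZT7 and 337, 453 and 567 at ZT11. It was 243, 294 and 352 at ZT15, 156, 149 and 238 at ZT19, and 111, 254 and 231 at ZT23. Only ZT15 replicate 3 (352) and ZT11 replicate 1 (337) crossed. The difference of -1.14 ± 0.19 (adjusted p = 0.011) was -0.88 without the 3 libraries (adjusted p = 0.0375). Mt1 fell from a mean of 963 ± 231 (SD, n = 9) in the light to 682 ± 160 FPKM in the dark, called with all libraries (-0.49, adjusted p = 0.0402) and just not without the 3 (-0.66, adjusted p = 0.0501). The genes are neighbours, and their windows are shown with the core of the metal response element (TGCACNC or TGCGCNC) in capitals, which is in 25.7% of all windows.
Mt1: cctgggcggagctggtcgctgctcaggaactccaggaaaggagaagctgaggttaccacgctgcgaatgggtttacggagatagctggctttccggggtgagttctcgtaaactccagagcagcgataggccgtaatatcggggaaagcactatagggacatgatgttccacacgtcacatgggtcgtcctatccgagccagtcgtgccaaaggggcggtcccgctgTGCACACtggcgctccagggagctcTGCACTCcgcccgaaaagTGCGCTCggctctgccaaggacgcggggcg
Mt2: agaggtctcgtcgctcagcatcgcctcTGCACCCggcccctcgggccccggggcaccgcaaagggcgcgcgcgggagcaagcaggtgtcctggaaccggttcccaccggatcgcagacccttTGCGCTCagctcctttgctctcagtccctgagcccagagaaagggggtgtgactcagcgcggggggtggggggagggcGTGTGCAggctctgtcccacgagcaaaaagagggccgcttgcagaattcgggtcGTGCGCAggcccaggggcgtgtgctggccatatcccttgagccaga
These are chr8:94178839-94179138 with 3 matches and chr8:94172368-94172667 with 4, both on the plus strand.

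Of the 14 other glucocorticoid-induced genes tested, 4 were lower (Sgk1, Ddit4, Cdkn1a and Arrdc2) and 1 (Zbtb16) higher with all libraries. These are 28.6% and 7.14%, against 6.79% and 17.1% of all genes, and the median difference of the 14 was -0.013. Without the 3 libraries 0 of the 14 were called, with a median of -0.062. Sgk1, a kinase induced by corticosterone, was 60.1 to 85.6 FPKM at ZT3, 30.6 to 57.9 at ZT7 and ZT11, 33.9 to 53.1 at ZT15, 42.7 to 47.3 at ZT19 and 28.0 to 31.3 at ZT23 (-0.40 ± 0.10, adjusted p = 0.019, and -0.38, adjusted p = 0.0697). The highest 3 values were those of ZT3. In the cholesterol synthesis pathway 8 of 26 genes were lower (30.8%, against 6.79% of all genes) and 0 higher with all libraries. Without the 3, 3 were lower, beside 1.58% of all genes. The medians were -0.084 with all libraries and -0.10 without the 3. Dhcr7, the last enzyme of the pathway, was 12 to 17.4 FPKM in the light and 7.40 to 12.8 in the dark, where only ZT15 replicate 3 (12.5) and ZT23 replicate 2 (12.8) entered the light range. Its difference was -0.36 ± 0.08 (adjusted p = 0.0143) and -0.45 without the 3 (adjusted p = 0.0329). Mvk, the mevalonate kinase, was called in both fits (-0.36 and -0.16), and Sc5d, a desaturase of late sterol synthesis, only without the 3 (-0.57, adjusted p = 0.00057, against -0.25, adjusted p = 0.183).

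**Figure D3:**
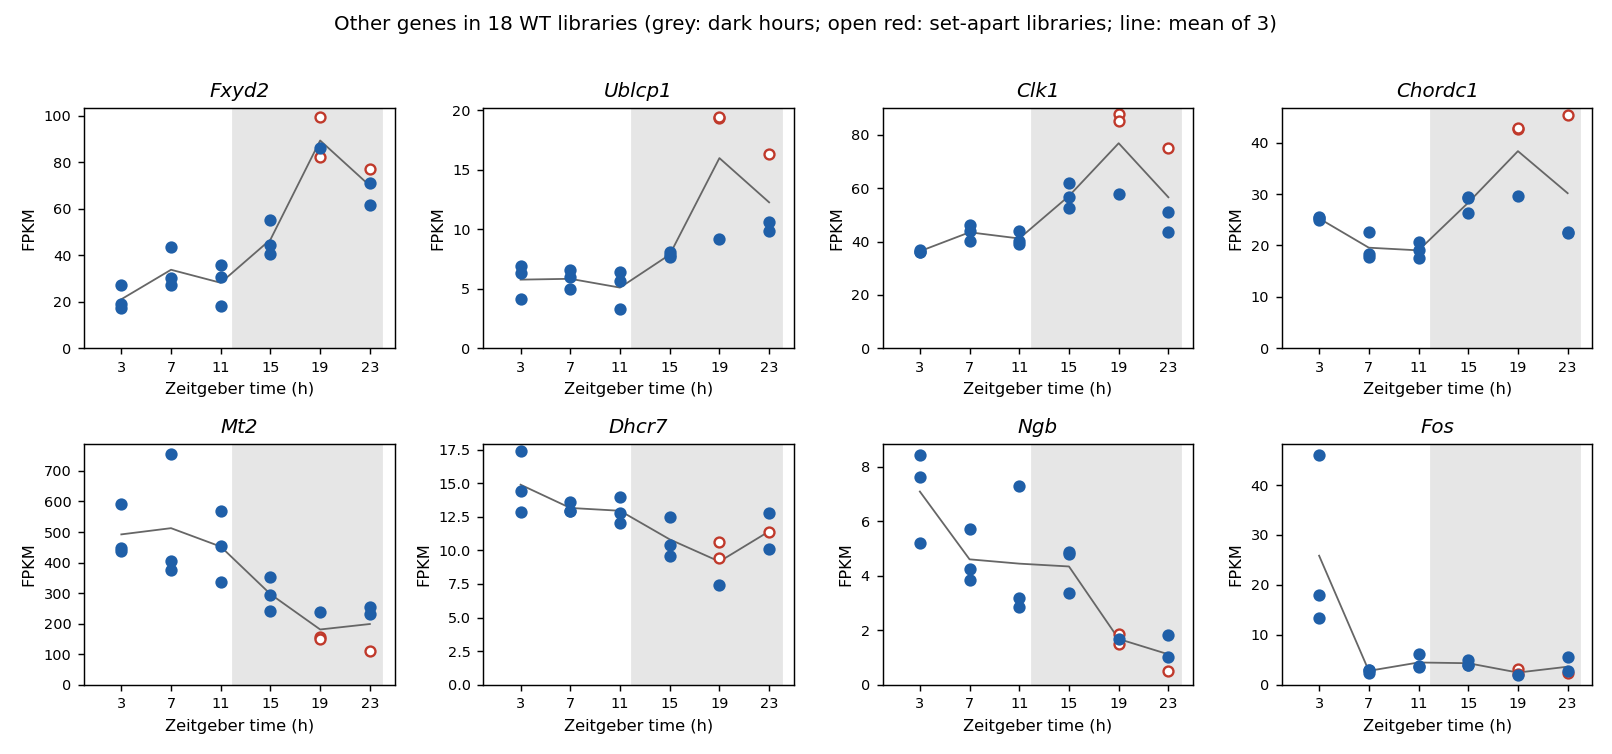
FPKM of 8 further genes in the 18 WT libraries by zeitgeber time, drawn as in the plot of clock genes. Fxyd2, Ublcp1 and Clk1 are higher in the dark hours, Mt2, Dhcr7 and Ngb are lower, and Fos is high at ZT3 alone.

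Of the genes that mark spiny neurons or carry their dopamine, adenosine and peptide signals, 4 of 29 were higher (13.8%, against 17.1% of all genes) and 1 lower with all libraries, and 0 were called without the 3. The median difference was 0.064 with all libraries and 0.12 without the 3, where 22 of the 29 were positive. Penk, the enkephalin precursor of neurons that carry the D2 receptor, was 1047 to 1758 FPKM in the dark and 894 to 1486 in the light (0.36 ± 0.10, adjusted p = 0.0261, and 0.36, adjusted p = 0.0822). Pde10a, the striatal phosphodiesterase, differed by 0.33 (adjusted p = 0.025) and 0.31 (adjusted p = 0.0777), with its highest value of 268 FPKM in a set-apart library. The receptors themselves were not called: Drd1 was 73.0 to 109 FPKM in the dark and 70.3 to 106 in the light (0.12, adjusted p = 0.326). Drd2 was 115 to 279 FPKM in the dark and 99.6 to 149 in the light, and its 3 highest values (193 to 279) were the set-apart libraries (0.37, adjusted p = 0.0565, and 0.11, adjusted p = 0.457, without them). Adora2a had its 3 lowest values, 87.4 to 120 FPKM, in the same libraries (-0.32, adjusted p = 0.19, and 0.06, adjusted p = 0.733). Gabrd and Kcnd1 were not called (adjusted p = 0.146 and 0.295).

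Of 27 glutamate and GABA receptor genes tested, 8 were higher in the dark with all libraries (29.6%, against 17.1% of all genes). With all libraries 0 were lower, against 6.79% of all genes, and the median was 0.19 against 0.055. Without the 3, 2 were higher, beside 4.18% of all genes (median 0.063 against 0.031). These 2 encode AMPA receptor subunits. Gria1 was 93.5 to 112 FPKM at ZT15, 129, 137 and 109 at ZT19 and 148, 98.0 and 97.6 at ZT23, against 74.0 to 99.9 in the light. Its 3 highest values were the set-apart libraries and the dark values of 93.5 to 98.0 lay within the light range (0.39 ± 0.09, adjusted p = 0.0154, and 0.26, adjusted p = 0.0482). Gria3 was 40.0 to 68.7 FPKM in the dark and 34.8 to 44.4 in the light (0.34 ± 0.08, adjusted p = 0.0145, and 0.24, adjusted p = 0.0489). Potassium channel genes gave 3 higher (Kcna4, 0.40, and Kcna2, 0.29, among them) and 1 lower (Kcnc1, -0.39) of 30, and 0 without the 3. These shares of 10% and 3.33% are below those of all genes (17.1% and 6.79%). Kcnc1 had its highest values at ZT7 (43.7 to 66.1 FPKM), against 19.3 to 40.7 in the dark.

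The larger housekeeping lists were split. Among 70 ribosomal protein genes 6 were higher (8.57%) and 15 lower (21.4%) with all libraries (median -0.27), and 3 higher and 1 lower without the 3 (median 0.019). Among 74 nuclear genes of oxidative phosphorylation the numbers were 9 and 9 (12.2% each, median -0.22), and 4 and 2 (median 0.061). Over all genes the shares were 17.1% higher and 6.79% lower, and 4.18% and 1.58% without the 3. The medians of both lists changed sign when the 3 libraries were left out. Uqcrh, a complex III subunit, rose by 0.46 in both fits (adjusted p = 0.0115 and 0.0383) and was 495 to 588 FPKM at ZT19 and ZT23 against 290 to 472 in the light. That range leaves out ZT15, whose libraries did not all lie above the highest light value, so dark and light overlapped. Cox7a2, of complex IV, was 174 to 310 FPKM in the light and 99.8 to 194 in the dark (-0.77 and -0.50, adjusted p = 0.0115 and 0.0391). Of 36 proteasome genes 10 were higher (27.8%) and 2 lower (5.56%), and 3 and 0 without the 3, with Psmc1 in both (0.44 and 0.38). The PPAR, RXR and PGC-1 genes gave 1 higher (Ppargc1b, 0.29) and 1 lower (Rxra, -0.27) of 9, and the NAD and sirtuin genes 1 higher of 12 (Nampt, 0.48), so that the shares higher (11.1% and 8.33%) were below the 17.1% of all genes. Of these only a sirtuin gene, Sirt7, was called without the 3 (0.22, against -0.065 with all).

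**Figure D4:**
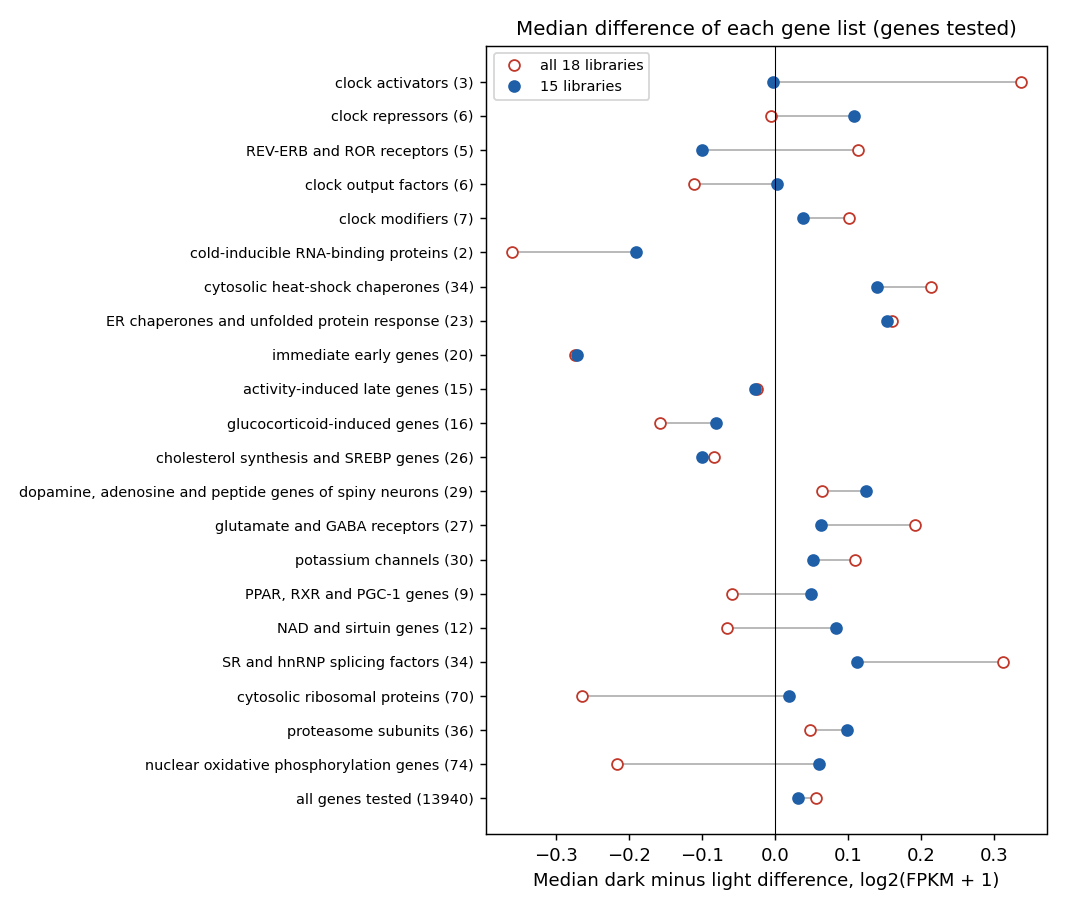
Median dark minus light difference of each gene list, in log2(FPKM + 1), with all 18 libraries (open red) and with 15 (blue), and the number of genes tested in parentheses. Chaperone and splicing lists lie right of 0 and immediate early and cholesterol lists left of 0 with both, while ribosomal and oxidative phosphorylation genes cross 0.

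The largest increase among genes called in both fits and with a mean of 5 FPKM or more in the higher phase belonged to Alb, serum albumin. It met that limit only through the dark hours, with a mean of 5.31 FPKM against 0.028 in the light. It was 12.7, 15.7 and 4.17 FPKM at ZT15 and 15 in ZT23 replicate 3, and at most 0.11 in the other 14 libraries. The difference of 1.59 ± 0.42 (adjusted p = 0.0223, and 1.79, adjusted p = 0.0491, without the 3) thus rests on 4 dark libraries, and its adjusted p was 0.0514 without ZT15 replicate 1. Fxyd2, a regulatory subunit of the sodium pump at chr9:45399709-45410278, did not rest on so few libraries. It was 27.0, 19 and 17.2 FPKM at ZT3, 43.6, 27.3 and 30.4 at ZT7 and 35.6, 18.1 and 30.8 at ZT11. In the dark it was 55.2, 40.5 and 44.3 at ZT15, 99.3, 82.3 and 86.2 at ZT19 and 77.0, 61.7 and 70.9 at ZT23. Only ZT7 replicate 1 (43.6) lay above a dark library (40.5), and the set-apart libraries were near the others of their hour. The difference was 1.28 ± 0.13 (adjusted p = 0.00058) and 1.25 without the 3 (adjusted p = 0.0068), and its call held with each single library left out.

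Ublcp1, a phosphatase that acts on the proteasome, did not overlap between the phases, with 7.67 to 19.4 FPKM in the dark and 3.26 to 6.91 in the light (0.93 ± 0.16, adjusted p = 0.011, and 0.64, adjusted p = 0.0383). The others of the 10 largest were Mns1, a structural protein of cilia and sperm (1.40 and 0.78), Cdr1 (1.25 and 0.69), the decay factor Upf3b (1.15 and 0.51), 1700124L16Rik (1.13 and 0.78), the Ran-binding protein Ranbp1 (1.01 and 0.43), the ribosomal protein Rps26 (0.93 and 0.29) and the transcription modulator Sltm (0.93 and 0.57). All of these 7 had their 3 highest values in the set-apart libraries, such as 612 to 662 FPKM for Rps26 against 105 to 172 in the other 15. Rps26 has near-identical copies in the genome and Cdr1 has an antisense transcript, so both values are uncertain.

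Of the 10 largest decreases the first was Hmgn2, a nucleosome-binding protein, with 7.79 to 29.6 FPKM in the light. In the dark it was 0.336, 8.50 and 0.179 at ZT15, 0.333, 0.264 and 0.299 at ZT19 and 16.0, 12.8 and 0.169 at ZT23. Its dark libraries thus fell into 3 near light levels and 6 near 0 (-2.81 ± 0.50, adjusted p = 0.0115, and -3.04, adjusted p = 0.0375). Hmgn2 has many processed copies, and its level here is uncertain. 1700003M07Rik showed a like division, with 4.22 to 5.95 FPKM in ZT15 replicate 2 and ZT23 replicates 1 and 2, 2.02 to 2.52 in the other 6 dark libraries and 5.20 to 8.79 in the light (-1.0 ± 0.14, adjusted p = 0.0042, and -1.07, adjusted p = 0.0068). Ngb, neuroglobin, was 2.87 to 8.44 FPKM in the light, 3.38 to 4.86 at ZT15 and 0.507 to 1.87 at ZT19 and ZT23 (-0.99 ± 0.16, adjusted p = 0.011, and -0.91, adjusted p = 0.0375). Pop4, a subunit of RNase P, was 14.0 to 24.2 FPKM in the light and 4.26 to 13.9 in 7 dark libraries, but 25.3 and 24.9 in ZT19 replicates 1 and 2 (-1.07 and -1.57). The remaining genes were Mt2, Atp5e (-1.64 and -0.58), the vesicle release factor Baiap3 (-1.09 and -0.91), Tuba1b (-1.04 and -0.35), the fatty acid carrier Fabp3 (-0.93 and -0.48) and Tspan4 (-0.81 and -0.48). Atp5e and Tuba1b have near-identical copies and are uncertain.

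Larger differences were called with all libraries only. Pttg1, securin, was 26.5 to 43.6 FPKM in the dark and 0.644 to 18.4 in the light, where ZT3 replicate 1, ZT7 replicate 3 and ZT11 replicate 1 were at 0.644 to 1.65 and the other 6 at 15.7 to 18.4 (2.13 ± 0.55, adjusted p = 0.021, and 2.14, adjusted p = 0.0785). Peg3os was 96.9 to 118 FPKM in the 3 set-apart libraries and 2.45 to 10.4 in the other 15 (1.73, and 0.48 without them). Actg1 was 94.1 to 98.5 and 7.67 to 21.5 in the same order (1.10 and 0.29), Nexn 80.4 to 109 and 7.91 to 28.0 (1.23 and 0.64), and Hmgn5 14.4 to 21.0 and 1.48 to 5.05 (1.06 and 0.42). For these 4 genes every set-apart library was above all others, and the difference was smaller without them. Among the decreases were the small nucleolar RNA Snora16a (-3.09), Rpl29 (-2.90), Rpl34 (-1.36), Rps28 (-1.20) and Oaz1 (-1.12). Peg3os is an antisense RNA, Snora16a lies inside a host gene, and Actg1 and the ribosomal genes have near-identical copies, so these values are uncertain.

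Complete separation of the phases was rare. All 9 dark libraries were above all 9 light ones for 24 genes (0.172% of those tested) and below them for 11 (0.0789%). The 4 with the smallest p in each direction are given here, chosen after their values were seen. Rnf26, a ubiquitin ligase of the ER membrane at chr9:44110781-44113051, was 12.4, 11.4 and 13.0 FPKM at ZT3, 9.13, 9.84 and 9.43 at ZT7 and 11.4, 11.3 and 8.92 at ZT11. In the dark it was 5.61, 6.13 and 5.42 at ZT15, 5.85, 5.49 and 5.86 at ZT19 and 4.60, 5.89 and 6.28 at ZT23. The 3 dark hours were alike and the set-apart libraries were not apart for this gene. Rnf26, Nlrx1, Fxyd2 and Slc37a4 lie in the same window of 10 megabases, and differences in genetic background between the mice were not tested. The Rnf26 difference of -0.81 ± 0.06 had the smallest p of the 8 (adjusted p = 2.38e-05, and -0.76, adjusted p = 0.00016, without the 3). Emc10, of the ER membrane protein complex, was 76.3 to 126 FPKM in the dark and 148 to 199 in the light (-0.73 ± 0.09, adjusted p = 0.0042, and -0.70, adjusted p = 0.0068). The mitochondrial protein gene Nlrx1 (-0.67 and -0.50) and the vascular gene Rasip1 (-0.52 and -0.42) followed. In the other direction were Ublcp1, Rnf32 with 5.68 to 8.42 against 4.20 to 5.38 FPKM (0.42 ± 0.06 and 0.41), Akr1c14 (0.69 and 0.52) and D030056L22Rik (0.34 and 0.26).

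The 3 dark hours did not differ from the light mean to the same extent. At ZT15, 32 genes were called with all libraries (0.23%) and 483 without the 3 (3.54%). At ZT19, 6028 genes were called (43.2%), and without the 3 set-apart libraries 0 (0%) by limma, with 2341 at an unadjusted p under 0.05 and a single ZT19 library left. At ZT23, 873 were called (6.26%) and 637 without the 3 (4.67%). Among the light hours 47 genes differed, and 774 (5.68%) in the 15-library fit. Among the dark hours 347 differed, and 222 (1.63%) in the 15-library fit. Of the 449 genes higher in both fits, 44 had their highest mean at ZT15 (9.8%), 280 at ZT19 (62.4%) and 123 at ZT23 (27.4%) when the 3 libraries were left out. Their choice puts the highest mean in the dark. Among all 8441 genes with the highest mean at a dark hour the shares were 27.9%, 38.3% and 33.8%. Of the 154 lower, 72 were highest at ZT7 (46.8%), 46 at ZT3 (29.9%) and 36 at ZT11 (23.4%), against 41.8%, 30.6% and 27.6% of the 5499 genes highest at a light hour. The ZT19 mean in this count is the value of 1 library. The longest transcripts of genes called in both fits had a median length of 3333 bases and 47.4% GC when higher and 2751 bases and 55.6% GC when lower, against 3390 bases and 49.8% over all genes.

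The iMSN-D2RKO mice give a second set of 18 libraries at the same hours. Among them, saline ZT7 replicate 1 had a total FPKM of 690048, against 381489 to 465297 in the others. It also had the fewest genes at 1 FPKM or more (12496) and was not set apart. Leaving it out was tried only for the test of the difference between genotypes, where limma again called 0 genes (506 at an unadjusted p under 0.05). Its part in the other iMSN-D2RKO results below was not tested. In iMSN-D2RKO mice the gene of the D2 receptor is flanked by loxP sites and cut by Cre recombinase under the D1 receptor promoter, which is active in embryonic precursors of spiny neurons. Drd2 was 78.0 to 375 FPKM in them and 99.6 to 279 in WT. A value over the whole gene does not check a deletion of part of it, and other cells keep the receptor gene intact. In the libraries labelled iMSN-D2RKO, 0 of 14135 genes (0%) were called between dark and light by limma, with 4427 at an unadjusted p under 0.05. Without their 4 set-apart libraries, all of them dark, 0 of 13943 (0%) were called, with 657 at an unadjusted p under 0.05. For genes called in both fits in WT, the difference in these separate mice without the set-apart libraries was positive for 87.3% of the 449 higher genes, with a median of 0.17 against 0.30 in WT, and for 55.1% of all genes. It was positive for 38.3% of the 154 lower genes, with a median of -0.057 against -0.34 in WT. Over all genes tested, the genotypes shared the sign of the difference for 82.6% with all libraries and for 62.3% without the set-apart ones.

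Tests of the difference between genotypes called 0 of 14287 genes by limma (533 at an unadjusted p under 0.05), and 1 without the set-apart libraries (757). That gene was Slc37a4, the glucose-6-phosphate transporter of the ER at chr9:44396946-44402966. In WT it was 17.4 to 19.5 FPKM at ZT15 and 19.8 to 20.7 in the other dark libraries that were not set apart, 7.82 to 10.1 in the 3 that were, and 9.42 to 17.4 in the light. In iMSN-D2RKO mice it was 6.51 to 17.2 FPKM in the dark and 10.3 to 24.3 in the light. The WT difference exceeded the iMSN-D2RKO one by 1.14 (95% interval 0.78 to 1.5, adjusted p = 0.0248), and by 1.08 (0.57 to 1.59, adjusted p = 0.474) with all libraries. Hmgn2 (-3.41, -4.81 to -2.00, adjusted p = 0.447) and 1700003M07Rik (-1.05, -1.53 to -0.57, adjusted p = 0.474) had the other 2 of the 3 smallest p-values among genes of at least 5 FPKM and were not called. The clock genes gave intervals that include 0 in both fits, other than Nfil3 without the set-apart libraries (-0.42, -0.707 to -0.124, adjusted p = 0.616). Fxyd2 was 16.7 to 124 FPKM in the dark (median 71.7) and 11.8 to 467 in the light (median 55.9) in iMSN-D2RKO mice. The difference from WT was 1.33 (0.29 to 2.37, adjusted p = 0.997).

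**Figure D5:**
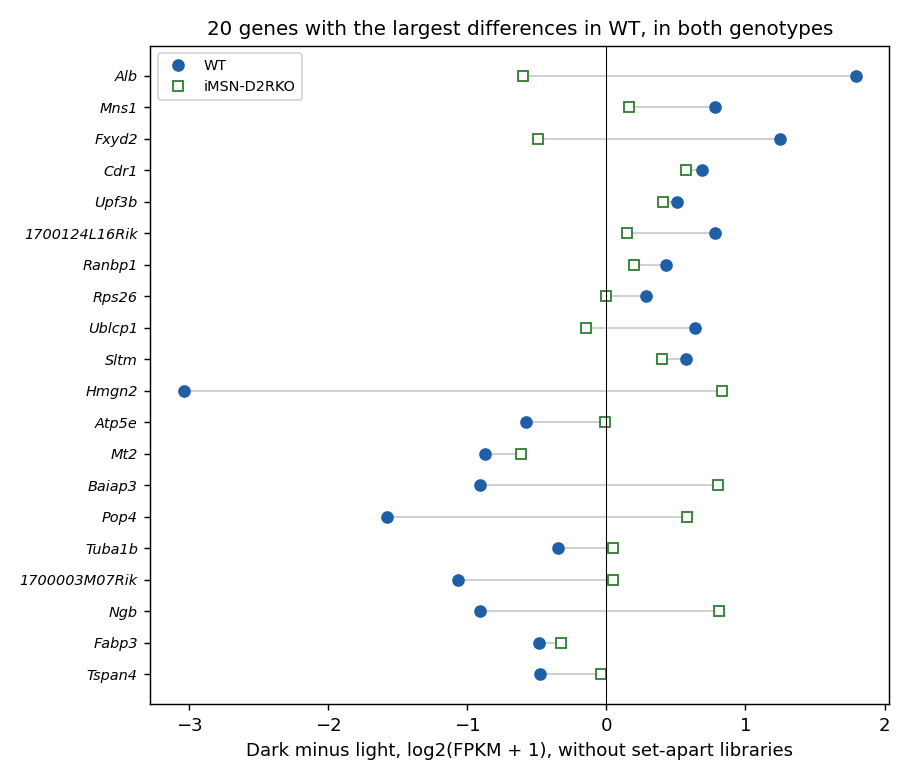
Dark minus light difference in log2(FPKM + 1), without the set-apart libraries, for the 20 genes with the largest differences among those called in both WT fits, in WT and in iMSN-D2RKO mice. Among others, Alb, Fxyd2, Hmgn2, Baiap3, Pop4 and Ngb have differences of opposite sign in the 2 genotypes, and no difference between genotypes was called for any of the 20. The iMSN-D2RKO values include saline ZT7 replicate 1, whose total FPKM was far above the others.

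After cocaine at ZT3 the WT dark-light differences were compared with those after saline, over ZT7 to ZT23 alone. limma called 0 of 14392 genes (153 at an unadjusted p under 0.05), and 7 without the set-apart libraries (1765). Among genes of at least 5 FPKM the 3 smallest p-values with all libraries belonged to immediate early genes. Nr4a1, an orphan nuclear receptor, was 44.6 to 123 FPKM in the dark and 16.0 to 36 in the light after cocaine. After saline it was 22.5 to 45.8 and 17.2 to 30.5. The difference of the differences was -1.36 (95% interval -1.94 to -0.79, adjusted p = 0.682), and -1.15 (adjusted p = 0.15) without the set-apart libraries. Fos (-1.51, -2.19 to -0.82) and Arc (-1.52, -2.22 to -0.81) had the same adjusted p, with 0.0685 and 0.0553 without the set-apart libraries. For Arntl, Per2, Nr1d1 and Cirbp the differences after cocaine were 0.62, 0.58, -0.48 and -1.08, beside 0.52, 0.45, -0.49 and -0.75 after saline over the same hours. Per1 had opposite signs, with 0.061 after cocaine and -0.20 after saline. The 95% interval of its saline minus cocaine difference (-0.72 to 0.20) included 0.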

How the data were processed

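The authors sequenced stranded poly(A) libraries of ventral striatum (single end), called bases with CASAVA 1.8.2, aligned them to mm10 with TopHat and Bowtie2, and deposited FPKM per gene for 66 libraries, made with Cufflinks, Cuffmerge, Cuffquant and Cuffnorm and normalized across libraries. Whether counting used strand is not given in the sources used here. The 6 ZT3 columns are listed a second time with identical values and were used once.

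Groups came from the sample labels. Genes reaching 1 FPKM in any library of a comparison were tested on log2(FPKM + 1) with limma 3.58.1 (R 4.3.3, trend), with zeitgeber time as a factor and the mean of the 3 dark hours set against the mean of the 3 light hours, and p-values were adjusted by Benjamini-Hochberg over all genes tested. A fold change on this scale understates the change of low genes. Replicates are separate mice per the study's methods. The steps were tested on simulated data. FPKM holds no read counts, so the depth is unknown and no counting interval is given.

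The set-apart libraries were found on the first axis of differences from group means over all 66 libraries. Promoter windows and coordinates are from RefSeq (GRCm38.p6), transcript lengths from GENCODE. Figures were drawn with Python 3.11.15 and matplotlib 3.10.9.

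Genes are named by rule: the clock and cold-inducible lists, the 10 largest differences in each direction called in both fits, the 5 largest called with all libraries only (mean of at least 5 FPKM), the 3 with the smallest p in each other list, genes the study names, and the 3 with the smallest p in each difference test. Of the genes the study names, Pparg was below the filter. Further list members are named where they were called or, after their values were seen, as the exceptions to a count. Some genes that the rule names are not reported here. The comparison, its lists and this rule were chosen with earlier results of these data known. Alternatives tried were the pseudocount, the filter, the scaling, leaving out libraries, hours or replicates, a library score as covariate, a replicate block, all 66 libraries in a single fit, 2 groups of 9 and time-point means.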

Additional observations from a re-analysis of the deposited data

Results flagged for a closer look

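In 226 sets of 9 libraries, the dark or the light values of 113 named genes, 17 (7.52%) had an end value far from the other 8 by Dixon's test, where chance gives about 1 in 20. ZT3 replicate 1 held the highest light value of 5 genes: Bhlhe40 at 30.6 FPKM, Egr4 at 186, Fos at 46.0, Fosl2 at 37.2 and Sik1 at 13.4. ZT3 replicate 2 held the highest of Dhcr7 (17.4 FPKM) and the lowest of Akr1c14 (0.399). ZT7 replicate 3 held the highest light value of Rorb (3.64 FPKM), Rora (13.8), Cdc37 (56.6) and Psmd12 (42.3) and the lowest of Rxra (10.1). ZT7 replicate 2 held the lowest of Actg1 (7.67 FPKM) and the highest of Rps28 (13.2). In the dark, 3 of the flags fell in libraries already described as set apart: Btrc (28.7 FPKM) and Gria3 (68.7) in ZT23 replicate 1 and Pde10a (268) in ZT19 replicate 1.

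Of the fits with all libraries and those without the set-apart ones, only the latter called dark-light differences that differed between groups by limma. Some of the alternative settings below, which keep the set-apart libraries, also called a few. For WT against iMSN-D2RKO mice, the gene was Slc37a4 (1.14 on the log2 scale, adjusted p = 0.0248). For saline against cocaine in WT there were 7 genes: Aida (-0.46, adjusted p = 0.0456), BC005537 (0.51, adjusted p = 0.0498), Tpt1 (-1.08, adjusted p = 0.0359), Top1mt (-0.67, adjusted p = 0.0498), Supt3 (-0.68, adjusted p = 0.0359), Lyar (-0.84, adjusted p = 0.0466) and Mad1l1 (-0.63, adjusted p = 0.0359).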

How the results depend on the processing

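The count of 3324 genes kept within 1.5 times under pseudocounts of 0.1 (3375) and 0.5 (3359), no filter (2535) and a mean filter (3363), and under a single total (2665, 1511 higher and 1154 lower) and quantile scaling (3049, 1689 and 1360). It was 785 (570 higher, 215 lower) in the 15 libraries, 838 (628 and 210) with the library score as covariate, 1063 (781 and 282) with 2 groups of 9, 477 (351 and 126) with all 66 libraries in a single fit, and 2 (1 and 1) with time-point means. Leaving out an hour gave 27 genes (13 and 14) for ZT3, 756 (574 and 182) for ZT7, 1524 (1038 and 486) for ZT11, 5187 (3540 and 1647) for ZT15, 12 (2 and 10) for ZT19 and 3742 (2645 and 1097) for ZT23. Leaving out both ZT19 and the set-apart libraries, chosen after seeing the data, gave 47 (23 and 24). The causes of these changes were not tested beyond the smaller numbers of libraries.

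Leaving out 1 library or 1 replicate number gave 0 to 7210 genes between dark and light (0 to 4687 higher, 0 to 2523 lower), 0 to 60 at ZT15, 0 to 8792 at ZT19, 0 to 2640 at ZT23, 0 to 6431 among dark hours, 1 to 174 among light hours, 0 to 5 between genotypes and 0 to 3 between treatments. Without replicate 1 of every time 5 genes were called between dark and light (2915 at an unadjusted p under 0.05), and without replicate 2 limma called 0 (2319). Single libraries that moved the count by over 1.5 times were ZT3 replicates 2 (1392) and 3 (1978), ZT7 replicates 1 (1985) and 2 (1180), ZT11 replicates 2 (1559) and 3 (1324), ZT15 replicates 1 (1092) and 2 (2159), and ZT19 replicates 1 (1134), 2 (1343) and 3 (7210).

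For single hours, ZT15 gave 76 genes with no filter, 6 with a mean filter, 54 with a single total, 483 without the set-apart libraries, 456 with the covariate and 13 in the fit of 66. By limma ZT19 gave 0 without the set-apart libraries, 149 with the covariate and 2899 in the fit of 66. ZT23 gave 1687 with the covariate and 18 in the fit of 66. Differences among dark hours gave 222, 1557 and 13 genes under these 3 settings, and among light hours 774, 848 and 25. Genotypes differed for 1 gene under the covariate and for 1 without the set-apart libraries, and treatments for 7 without them.

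Correlations between same-numbered libraries ran from -0.718 to 0.732 (45 pairs, median 0.050), and those of 90 other pairs from -0.844 to 0.795 (median -0.018). Values over 0.1 were held by 15 of the 45 and 19 of the 90. Correlations spread this widely cannot tell whether the numbers pair the libraries. A replicate block gave 4381 genes (3080 and 1301), with 22 at ZT15, 6513 at ZT19, 1775 at ZT23, 522 among dark and 111 among light hours, and 0 for both difference tests.

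Of 116 named genes 83 were called, and each lost its call under at least 1 alternative, while 22 others gained one. Without ZT3, Fosl2 (0.14), Dusp4 (0.0037) and Arc (0.097) changed sign. Of the 83, 59 kept their call with each single library left out, among them Arntl, Per2, Per1, Nr1d1, Cirbp, Fxyd2, Clk1, Mt2 and Rnf26. Alb lost it without ZT15 replicate 1 (adjusted p = 0.0514). Hlf kept it in 12 of 18, Penk and Pde10a in 13, Calr in 15, Nampt in 10, Rps26 in 9 and Arc and Dusp4 in 4.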

Other observations

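The share of genes called in both fits was counted along the genome, and whether it varied more than by chance was not tested. Of 13103 tested genes with a RefSeq position, 568 (4.33%) were called in both fits, 423 higher and 145 lower in the dark. Over the 98 windows of 10 megabases with at least 50 tested genes, the highest share was on chromosome 9 between 40 and 50 megabases, with 10 of 76 genes (13.2%), 5 higher and 5 lower. The next were chromosome 2 between 130 and 140 megabases (11.1%) and chromosome 15 between 90 and 100 (10.7%). The windows were compared after the values were seen and no test was made. Whether the mice differed in genetic background there was not tested either. The 10 genes on chromosome 9 include the 3 lower genes Rnf26, Nlrx1 and 1700063D05Rik, whose 9 dark libraries were all below the 9 light ones. Genes without overlap in either direction were thus 3 of the 76 tested in this window, against 33 of all 13103 with a position. Vps11, an endosomal sorting gene, was lower (-0.33, adjusted p = 0.0159, and -0.20, adjusted p = 0.0445, without the 3 set-apart libraries), as was the kainate receptor gene Grik4 (-0.26 and -0.25). Fxyd2, Rexo2 (0.55 and 0.38), 2900052N01Rik (0.75 and 0.43), Apoc3 (0.91 and 1.09) and Zpr1 (0.15 and 0.18) were higher. 1700063D05Rik had a mean of 0.895 FPKM in the light and 0.05 in the dark. It passed the filter only through the light libraries, with a highest value of 1.79 FPKM there and 0.16 in the dark. Slc37a4, which differed between genotypes without the set-apart libraries, lies in the same window.

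Several of the genes above had more than 1 level within a phase rather than a gradual change by hour. Hmgn2 was under 0.4 FPKM in 6 dark libraries and at 8.50 to 16.0 in the other 3, Pttg1 was at 0.644 to 1.65 FPKM in 3 light libraries and at 15.7 to 18.4 in 6, and Alb was at 4.17 to 15.7 FPKM in 4 dark libraries and at most 0.11 in 5. The libraries at the low level were not all of a single hour for any of the 3 genes. Differences in genetic background between single mice were not tested for these genes or for 1700003M07Rik.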
